A study of Mus musculus with 9 samples.

Results

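Ribosomal protein pseudogenes that carried a measurable level in mouse 8-cell embryos were examined one by one and beside their parent genes. They were chosen by symbol and by level: an entry was kept when its name was that of a ribosomal protein gene followed by -ps, with or without a number, and when its mean over the 9 libraries was at least 1 FPKM (fragments per kilobase of transcript scaled to the number of mapped fragments). Of 55335 entries, 309 had such a name, and 128 of these reached the minimum. Because the level chose them, the levels below are a description and carry no test. Of the 128, 125 also had a mean of at least 1 in the control libraries alone, and 115 had it in each of the 3 groups.

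A processed pseudogene is a copy of a messenger RNA that was reverse transcribed and inserted elsewhere in the genome. It has no introns and usually no promoter of its own. Ribosomal protein genes have given rise to more processed pseudogenes than almost any other family in mammals, because their messages are short and abundant in the germ line. A recent copy differs from its parent at a few bases or at none, so that a sequencing read from the parent can also match the copy. FPKM values of such a pair therefore rest on how reads that match both were shared out, and the sources used here do not say how that was done.

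All embryos came from ICR mice, were made by in vitro fertilization, received siRNA by injection at the zygote stage and were collected at the 8-cell stage. Control zygotes received nontargeting siRNA, MFN1-KD zygotes siRNA against Mfn1 (mitofusin 1, a protein of mitochondrial fusion), and H3.3-KD zygotes siRNA against both H3f3a and H3f3b (the genes of histone variant H3.3). Each group had 3 libraries, made by Smart-Seq2, which primes on the poly(A) tail. The labels give 5 to 10 embryos per library, while the methods text gives 10 per group. The libraries of a group are described as biological replicates, but no label says that the pools came from separate injections, so the p-values measure the spread between these libraries, which may be technical.

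The targeted genes were checked first. Mfn1 was at 32.6 ± 16.4 FPKM (SD, n = 3) in control, 5.03 ± 4.23 in MFN1-KD libraries and 76.6 ± 32.1 in H3.3-KD libraries. H3f3a was at 1932 ± 293 in control and 149 ± 28.3 in H3.3-KD libraries, and H3f3b at 2988 ± 154 and 246 ± 70.3. Each knockdown library thus had its targeted message below every control library. Of 12 genes listed as marks of the 8-cell embryo or the oocyte, 11 had a mean of at least 1 FPKM, Sox2 being the exception. Their summed level was 125 to 159 FPKM in control, 151 to 165 in MFN1-KD libraries and 326 to 698 in H3.3-KD libraries. Of 8 cumulus or granulosa cell markers, 1 reached that mean, and the list's summed level was 16.1 to 29.8, 10.2 to 19.3 and 38.2 to 67.1 in the same order, with Fshr and Inhba at 0 in all libraries. None of 4 sperm markers did, with sums of 1.68 to 2.93, 0 to 0.78 and 0.09 to 0.89. Of 3 blood markers 2 did, with sums of 77.8 to 96.7, 18.3 to 77.9 and 9.07 to 14.6. Their part in the results below was not tested. The entries above 0 numbered 21643 to 22507 in control, 15577 to 20842 in MFN1-KD libraries and 23655 to 24820 in H3.3-KD libraries. The files give no counts, so the depth is unknown.

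The pseudogenes were matched by symbol to GENCODE M21, the annotation of mouse build GRCm38, in which 124 of the 128 had 1 gene. The annotation calls 116 of them processed pseudogenes and 4 transcribed processed pseudogenes. It calls the remaining 4, Rpl10-ps3, Rpl9-ps6, Rps12-ps3 and Rpl36a-ps1, protein-coding, so the label pseudogene does not hold for these in that annotation. All 124 had a single exon, and they lay on 20 chromosomes, with 10 each on chromosomes X, 1 and 2. On the same strand, 16 overlapped the range of another gene, for example Rps19-ps6 in Tecpr2. Of these, 3, namely Rpl19-ps11, Rpl19-ps1 and Rpl19-ps6, overlapped an exon of such a gene. Those 3 overlaps make their values uncertain. Other pseudogenes overlap a gene on the opposite strand, for example Rps26-ps1 with Wwp2, Rps23-ps1 with Gm5148 and Rps23-ps2 with C330021F23Rik. If strand was not kept, these overlaps add the same uncertainty.

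Stretches of the pseudogenes that the results turn on are shown beside the same bases of their parents, to let a reader see how little separates them. Each stretch has 60 bases inside the parent's coding sequence and is the one with the most differing letters, the first where several tie. Sequences are from GENCODE M21 on GRCm38, 5′ to 3′ along the transcript, and capitals mark the letters that differ. Rps26-ps1 lies on the minus strand at chr8:107439503-107439562, opposite to Wwp2, and Rps26 is shown from base 1 to 60 of its coding sequence.
Rps26-ps1: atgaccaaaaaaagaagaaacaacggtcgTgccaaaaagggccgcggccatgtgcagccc
Rps26: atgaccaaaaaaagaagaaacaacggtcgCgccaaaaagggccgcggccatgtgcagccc
Rpl10a-ps1, on the minus strand at chr1:64994545-64994604, has no differing letter over its whole length of 654 bases, and the first 60 coding bases stand for both.
Rpl10a-ps1: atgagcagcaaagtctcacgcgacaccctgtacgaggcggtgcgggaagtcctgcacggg
Rpl10a: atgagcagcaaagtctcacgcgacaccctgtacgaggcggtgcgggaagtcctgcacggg
Rps2-ps13, on the plus strand at chrX:52898612-52898671, differs at 7 of 882 aligned bases, 2 of them here, beside bases 25 to 84 of the Rps2 coding sequence.
Rps2-ps13: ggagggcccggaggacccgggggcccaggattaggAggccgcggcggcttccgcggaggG
Rps2: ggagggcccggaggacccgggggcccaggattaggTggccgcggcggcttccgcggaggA
Rpl34-ps1, the pseudogene with the highest level, lies on the plus strand at chr6:71124682-71124741 and differs at 2 of 354 bases. It is shown with bases 73 to 132 of Rpl34.
Rpl34-ps1: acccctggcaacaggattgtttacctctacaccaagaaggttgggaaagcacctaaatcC
Rpl34: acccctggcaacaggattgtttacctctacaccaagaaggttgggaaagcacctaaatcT
Rpsa-ps10, on the minus strand at chr3:150073324-150073383, differs at 6 of 885 bases. It is shown with bases 160 to 219 of Rpsa.
Rpsa-ps10: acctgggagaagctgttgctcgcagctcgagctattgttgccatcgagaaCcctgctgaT
Rpsa: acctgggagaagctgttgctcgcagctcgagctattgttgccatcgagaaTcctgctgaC
Rps19-ps7, on the minus strand at chr2:140073170-140073229, stands for the more diverged copies. It differs at 15 of 438 bases, 6 of them beside bases 241 to 300 of Rps19.
Rps19-ps7: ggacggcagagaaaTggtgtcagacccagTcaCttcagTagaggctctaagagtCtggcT
Rps19: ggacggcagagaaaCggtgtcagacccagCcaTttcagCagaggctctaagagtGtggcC
Rpl38-ps1, on the plus strand at chr4:138425790-138425849, differs at 4 of 215 bases, 2 of them at the start of the coding sequence.
Rpl38-ps1: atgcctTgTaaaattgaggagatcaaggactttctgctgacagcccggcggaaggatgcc
Rpl38: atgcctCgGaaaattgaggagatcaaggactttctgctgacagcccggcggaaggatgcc
Rpl35a-ps2, on the minus strand at chr1:181242165-181242224, stands for 4 copies of Rpl35a with the same sequence on 4 chromosomes, which differ from the parent at 1 base. It is shown with bases 97 to 156 of Rpl35a.
Rpl35a-ps2: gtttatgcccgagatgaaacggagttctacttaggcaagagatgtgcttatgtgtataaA
Rpl35a: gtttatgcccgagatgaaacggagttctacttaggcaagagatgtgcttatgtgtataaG

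The level went with closeness to the parent. The 28 pseudogenes with a mean of at least 100 FPKM had a median identity of 99.7% to their parent and a median of 1 differing base, and 11 of them were identical to it. The 34 with a mean from 10 to under 100 had a median identity of 99.2% and 4 differing bases. The 66 from 1 to under 10 had 98.2% and 10 differing bases, and none of those was identical. Of the 181 entries under the minimum, 171 could be aligned, and these had a median identity of 92.2% and 33 differing bases. Against this order, 1 of them, Rpl10-ps1, was identical to its parent and had a mean of 0 FPKM. The copies of one parent share their sequence and are not independent, and 50 of the 309 entries were listed at 0 in all 9 libraries.

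**Figure D1:**
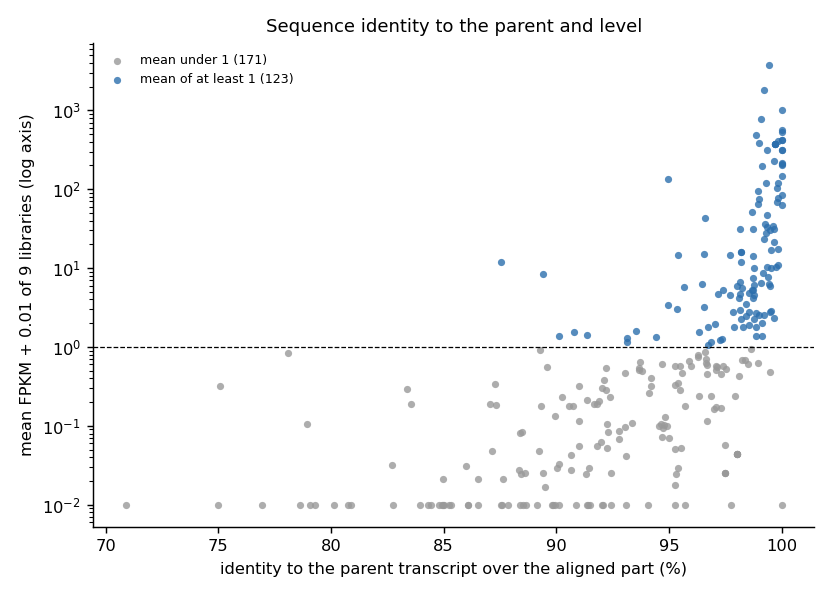
Identity to the parent transcript over the aligned part (%, horizontal axis) and mean level over the 9 libraries (FPKM + 0.01, vertical log axis), for 171 aligned entries under the minimum of 1 FPKM (grey) and 123 aligned entries above it (blue), with the minimum as a dashed line. The lowest identity among the 28 entries with a mean of at least 100 FPKM is 95.0%, and Rpl36a-ps3 (87.5%) and Rpl23a-ps4 (89.4%) have the lowest identities above the minimum.

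Because the reads were 150 bases long, each pseudogene was also cut into all its windows of 150 bases, and each window was looked for, letter by letter and on both strands, in every other annotated transcript. In 12 pseudogenes all windows were found in the parent. In 79 at least some windows were found in the parent or in another gene, but not all of them in the parent, and in 33 no window was found elsewhere. For the 4 that the annotation lacks this is not known. The median level was 311 FPKM for the 12, 11.1 for the 79 and 3.50 for the 33. None of the 33 reached 100 FPKM, the highest being Rps19-ps7 with a mean of 43.5. An open reading frame was counted only where its stop codon lay within the annotated copy. By that count, one at least as long as the parent's was present in 64 of 124, among them 21 of the 28 with a mean of at least 100 FPKM. Copies whose annotation ends before the stop codon are missed. Rps13-ps2, identical to Rps13 over its 453 bases, scored 8 codons beside 151 in the parent. These counts therefore do not tell which copies lack the parent's frame.

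Per length, most pseudogenes lay far below their parents. In control libraries the median was 0.386% of the parent's level, and 79 of 128 lay under 1%. A further 32 lay from 1 to 10%, 14 from 10 to 100%, and 3 above their parent. These 3 were Rps2-ps13 at 735% of Rps2, Rpl34-ps1 at 252% of Rpl34, and Rps2-ps10 at 126% of Rps2. Rps2 and Rpl34 encode proteins of the small and of the large ribosomal subunit. The 12 with all windows in the parent ranged from 3.99 to 26.9% of its level, and the 33 with no shared window from 0.0211 to 1.48%. The 1.48% is that of Rpl39-ps, which has 151 bases and so only 2 windows, and differs from Rpl39 at 1 base. Its class therefore says little about how well its reads can be told from those of the parent.

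**Figure D2:**
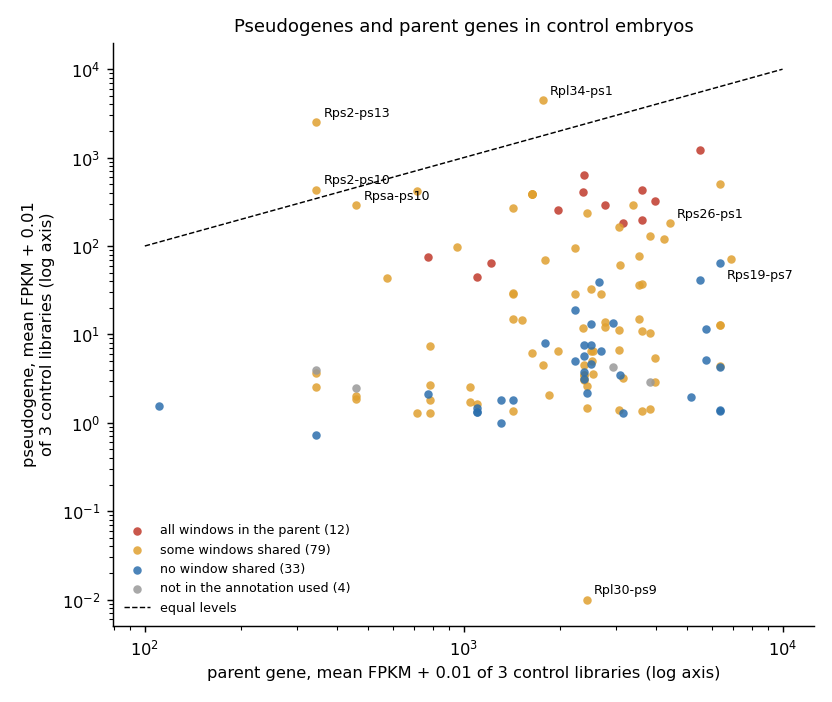
Mean level of each of the 128 pseudogenes (vertical) against that of its parent (horizontal) in the 3 control libraries, as FPKM + 0.01 on log axes, coloured by how many of its windows of 150 bases occur in other annotated transcripts, with a dashed line of equal levels. The 3 points above the line are Rps2-ps13, Rpl34-ps1 and Rps2-ps10, and all 33 points with no shared window lie at or below 1.48% of the parent.

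Rpl34-ps1 had 3603, 5112 and 4618 FPKM in the control libraries, 3564, 4333 and 2822 in MFN1-KD, and 3854, 3602 and 2543 in H3.3-KD. Rpl34 had 1395, 2053 and 1853 in control, 1254, 1237 and 1035 in MFN1-KD, and 1597, 1490 and 1113 in H3.3-KD. The groups of Rpl34-ps1 overlapped, and neither knockdown passed the test. Rpl38-ps2, identical to Rpl38 over its 213 bases, was at 1221 ± 437 in control, 997 ± 318 in MFN1-KD libraries and 829 ± 157 in H3.3-KD libraries. Rpl31-ps8, also identical to its parent, was at 643 ± 216, 452 ± 348 and 604 ± 75.8.

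The members of a family summed to very unequal amounts. Rpl31 and Rps19, which encode a large-subunit protein and a small-subunit protein mutated in Diamond-Blackfan anemia, had the most pseudogenes above the minimum, 8 each. In all, the 128 came from 48 parents. In control libraries the 8 copies of Rps19 summed to 9.47% of the parent's level, the 8 of Rpl31 to 28.2%, the 5 of Rpl35a to 95.8%, and the 6 of Rps2 to 864%. In MFN1-KD libraries the same sums were 14.9, 18.9, 134 and 378%, and in H3.3-KD libraries 6.13, 55.5, 109 and 113%. Single values within these families are uncertain where copies share a sequence: Rpl35a-ps2, Rpl35a-ps3, Rpl35a-ps4 and Rpl35a-ps6 had 1 sequence of 333 bases and the same value in every library (309, 487 and 377 FPKM in control), and so had Rps19-ps1 and Rps19-ps2, of 438 bases. Each of the 4 Rpl35a copies was at 23.9% of the parent in control. Equal values may hold the same reads. The sums that include them, here and over all 128, may therefore count such reads more than once.

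The sum over all 128 was set against the sum of the 79 cytoplasmic ribosomal protein genes. The pseudogenes made up 6.51, 7.70 and 7.002% of this total in the control libraries, 5.13, 7.66 and 5.89% in MFN1-KD, and 9.30, 10.2 and 9.16% in H3.3-KD. The 3 H3.3-KD values lay above all others, and the MFN1-KD values overlapped the control values. The pseudogenes themselves summed to 17019 ± 3580 FPKM in control and 17318 ± 2435 in H3.3-KD libraries, while the ribosomal protein genes summed to 222130 ± 30625 and 163470 ± 16256. The share was thus higher in H3.3-KD beside a lower sum of the ribosomal protein genes and an overlapping sum of the pseudogenes. No test was made of these sums, to which the 5 highest pseudogenes gave 44.9 to 53.4% of the pseudogene sum in H3.3-KD libraries.

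In H3.3-KD embryos 10 pseudogenes rose and 3 fell against control. Rpl15-ps2, Rps26-ps1 and Rpl10a-ps1 rose the most among those above 0 in control, and Rpsa-ps10 fell the most. A call was a Benjamini-Hochberg adjusted p under 0.05 and a change of more than 2-fold in limma, fitted to log2(FPKM + 1) over all 13011 genes with a mean of at least 1. The 10 are 7.81% of the 128, where 20.2% of all genes tested rose, and the 3 are 2.34%, where 7.54% of all genes fell. Of 95 other expressed pseudogenes with a parent in the files, 28 rose and 7 fell. Of the 79 ribosomal protein genes, 2 rose and 10 fell. The median log2 change was 0.0019 for the pseudogenes, 0.26 for all genes and −0.44 for the ribosomal protein genes. The split of higher and lower calls depends on the scaling: median-ratio scaling, which brings the median of all genes to 0.00, gave 6 higher and 8 lower, and upper-quartile scaling gave 6 and 16. The count of 10 fell to 4 without control replicate 1 or H3.3-KD replicate 2, and to 5 without control replicate 3 or H3.3-KD replicate 1, and the count of 3 was 2 without any 1 control library or H3.3-KD replicate 1.

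Rps26-ps1 is a copy of Rps26, whose protein sits near the exit of the mRNA channel of the small subunit. It had 92.6, 166 and 283 FPKM in control, 212, 178 and 66.3 in MFN1-KD, and 1962, 1989 and 2000 in H3.3-KD libraries. All H3.3-KD libraries were far above the other 6, and their spread was small. The log2 change was 3.59 (SE 0.46, limma adjusted p = 0.000484). Rps26 moved the other way, from 3699, 4559 and 5015 in control to 1433, 1475 and 1542 in H3.3-KD, a log2 change of −1.57 (SE 0.17, limma adjusted p = 0.000205). The pseudogene was at 4.09% of its parent in control, 3.53% in MFN1-KD libraries and 134% in H3.3-KD libraries. It shares 30% of its windows with Rps26, and the sum over the 5 entries of the pair and the genes that share a window with it was 4796 ± 770 in control and 3548 ± 77.4 in H3.3-KD, without overlap.

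Rpl10a-ps1 is an identical copy of the coding sequence of Rpl10a, a protein of the large subunit's L1 stalk. It had 46.9, 76.5 and 70.7 FPKM in control, 45.6, 114 and 36.3 in MFN1-KD, and 564, 548 and 432 in H3.3-KD libraries. Again all H3.3-KD libraries stood above the rest, with a log2 change of 2.99 (SE 0.39, limma adjusted p = 0.000475). Rpl10a had 1125, 1241 and 1290 in control and 1637, 1627 and 1285 in H3.3-KD, and its log2 change of 0.31 did not pass (limma adjusted p = 0.171). The pseudogene's level went from 5.31 to 33.9% of its parent's. Summed over the pair, the level was 1283 ± 98.8 in control, 1553 ± 82.5 in MFN1-KD libraries and 2031 ± 273 in H3.3-KD, where both knockdowns lay above all controls. The windows of Rpl10a-ps1 all occur in Rpl10a and in no further gene, so that no read within the annotated copy can be told from one of the parent.

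**Figure D3:**
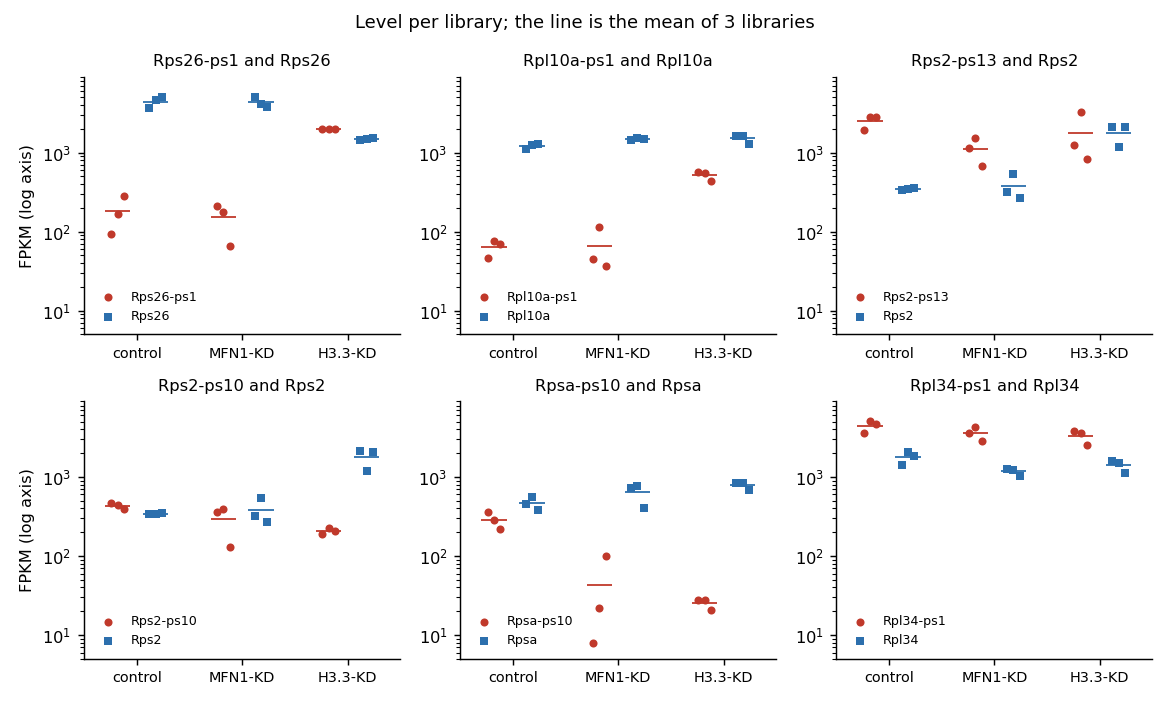
FPKM on a log axis in each of the 9 libraries for 6 pseudogenes (red circles) and their parents (blue squares), by group, with the mean of 3 libraries as a line. In H3.3-KD libraries Rps26-ps1 lies above Rps26, Rps2 lies above Rps2-ps10, and Rpsa-ps10 lies under 28 FPKM while Rpsa lies over 690.

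Of the other pseudogenes that rose, 3 were named by the size of their change. Rpl15-ps2, a copy of the large-subunit gene Rpl15, had 3.66, 3.38 and 2.66 FPKM in control and 8.17, 165 and 222 in H3.3-KD libraries, with a log2 change of 4.05 (SE 1.22, limma adjusted p = 0.0319). The libraries did not overlap, but the change ranged widely within H3.3-KD, and without H3.3-KD replicate 2 the adjusted p was 0.0941. Rpl30-ps9, a copy of the large-subunit gene Rpl30, was listed at 0 in all control and MFN1-KD libraries and had 26.3, 30.9 and 0.09 in H3.3-KD. It reached the minimum level through H3.3-KD replicates 1 and 2 alone, so the choice of pseudogenes itself set the direction of its change, and its call, counted among the 10, is no support for a rise. Without H3.3-KD replicate 2 the limma adjusted p was 0.129. Rps2-ps6 rose from 1.89, 2.83 and 2.81 to 12.8, 9.43 and 15.9, a log2 change of 1.95 (SE 0.48, limma adjusted p = 0.012), beside a rise of Rps2 itself.

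Rps23-ps1 is a high-level copy of Rps23, whose protein lines the decoding centre. It is identical to Rps23 over its 425 bases and lies opposite to Gm5148. All its windows occur in Rps23, so that no read within the annotated copy can be told from one of the parent. The value listed for Rps23-ps1 rose from 212, 511 and 497 FPKM to 878, 883 and 876. The log2 change was 1.22 (SE 0.39, limma adjusted p = 0.0392), and the call is lost under both other scalings, with an adjusted p of 0.263 under upper-quartile scaling. Rps23 had 2360 ± 295 in control and 2563 ± 180 in H3.3-KD. The remaining rises, those of Rpl21-ps8, Rpsa-ps2, Rps23-ps2 and Rpl17-ps9, had log2 changes of 1.62, 1.50, 1.17 and 1.07. They were named after their values were seen.

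Among the 3 that fell in H3.3-KD, Rpsa-ps10 fell in both knockdowns. Rpsa encodes a small-subunit protein also known as the laminin receptor. The pseudogene had 355, 287 and 221 FPKM in control, 7.94, 22.03 and 100 in MFN1-KD, and 27.4, 27.7 and 20.5 in H3.3-KD libraries. All 6 knockdown libraries were below all controls, and those of MFN1-KD were widely spread. The log2 change was −3.45 in H3.3-KD (SE 0.69, limma adjusted p = 0.00499) and −3.36 in MFN1-KD (SE 0.69, limma adjusted p = 0.0391). Both comparisons use the same control libraries. Over the alternatives the adjusted p in H3.3-KD ranged from 6.92e-05 to 0.0202 and in MFN1-KD from 0.00438 to 0.149. Rpsa had 453, 549 and 381 in control, 728, 779 and 409 in MFN1-KD, and 830, 848 and 690 in H3.3-KD, and neither change was called. The sum over 6 entries, Rpsa-ps10, Rpsa and those that share windows with the former, was 754 ± 128 in control, 691 ± 158 in MFN1-KD libraries and 826 ± 91.5 in H3.3-KD, so that these sums overlapped.

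Rpl38-ps1, which shares no window with another transcript, fell from 23.99, 54.6 and 45.5 FPKM to 15.0, 11.3 and 13.5, a log2 change of −1.50 (SE 0.33, limma adjusted p = 0.00671). Its parent Rpl38, known for its part in patterning of the mouse axial skeleton, fell alongside, from 5497 ± 1061 to 1814 ± 306, a log2 change of −1.59. The pseudogene was at 0.752% of its parent in control and 0.731% in H3.3-KD. With the trend on GC content and length removed, its adjusted p was 0.0646. Rps2-ps10 fell from 464, 447 and 390 to 191, 228 and 206, a log2 change of −1.05 (SE 0.36, limma adjusted p = 0.0472), and the call is lost without any 1 control or H3.3-KD library.

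The Rps2 family shows how values moved within one set of near-identical copies. Rps2 had 337, 342 and 354 FPKM in control and 2118, 1183 and 2081 in H3.3-KD, a log2 change of 2.33 (SE 0.29, limma adjusted p = 0.000432). Rps2-ps13 had 1947, 2810 and 2835 in control, 1152, 1529 and 682 in MFN1-KD, and 1260, 3302 and 818 in H3.3-KD. Within H3.3-KD the library with the highest Rps2-ps13 had the lowest Rps2. Summed over 21 entries, Rps2-ps13, Rps2 and those that share windows with the former, the level was 3326 ± 488 in control and 3858 ± 818 in H3.3-KD, and these libraries overlapped. In MFN1-KD the sum was 1805 ± 702, below all controls, while Rps2 itself, at 376 ± 145, overlapped them.

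**Figure D4:**
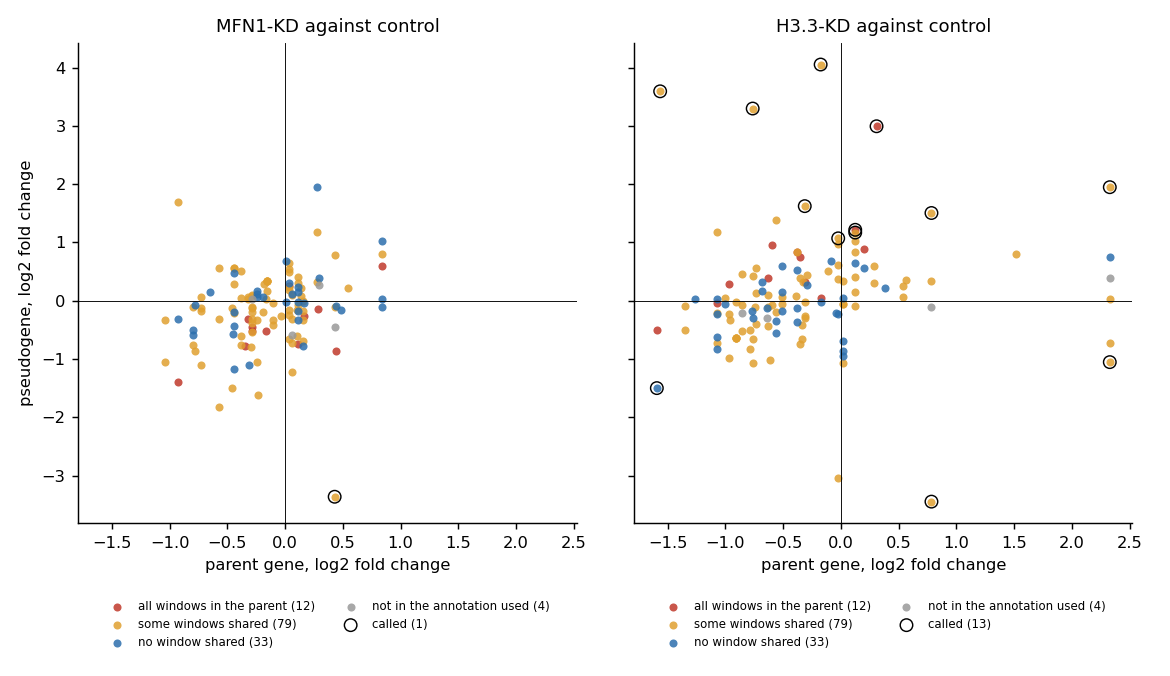
Log2 fold change of each of the 128 pseudogenes (vertical) against that of its parent (horizontal) in MFN1-KD (left) and H3.3-KD (right), coloured by shared windows, with called pseudogenes ringed, 1 on the left and 13 on the right. In H3.3-KD all 10 called rises are pseudogenes with some or all windows in the parent or another gene, and their parents lie on both sides of 0.

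In MFN1-KD embryos no pseudogene was called higher and 1, Rpsa-ps10, was called lower by limma, where 1.09% of all genes tested were called higher and 2.05% lower. With an unadjusted p under 0.05 and a change over 2-fold, which was the study's rule, limma gave 2 higher and 7 lower, where 5.02% and 9.05% of all genes passed. The 2 were Rpl23a-ps4 and Rps12-ps10, the latter named after its values were seen. Rpl23a-ps4, a diverged copy with 89.4% identity to Rpl23a, had 2.51, 3.41 and 4.4 FPKM in control, 8.34, 23.8 and 19.95 in MFN1-KD, and 1.39, 1.89 and 9.76 in H3.3-KD. The MFN1-KD libraries were above all controls, and the log2 change of 1.95 had a limma adjusted p of 0.0867. Rpl3-ps1, which differs from Rpl3, a protein of the peptidyl transferase centre, at 2 of 1210 bases, had 354, 454 and 451 in control, 182, 224 and 77.9 in MFN1-KD, and 699, 757 and 465 in H3.3-KD. Its log2 change in MFN1-KD was −1.50 (SE 0.36, limma adjusted p = 0.0523). The median log2 change was −0.12 for the pseudogenes, −0.08 for all genes and −0.14 for the ribosomal protein genes.

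The level of a pseudogene relative to its parent was compared library by library, as the difference of their log2(FPKM + 1) values, which cancels any scaling of a library at high levels. In H3.3-KD the 3 differences did not overlap those of control in 76 of 128 pairs (59.4%), of which 65 were higher and 11 lower. Among the other pseudogenes this held for 55.8% of 95 pairs, so that the share is near that background. In MFN1-KD it held for 26 pairs (20.3%), 14 higher and 12 lower, beside 29.5% of the other pseudogenes. With 3 libraries against 3, the smallest p of a two-sided exact permutation test is 0.1, which every pair without overlap reaches, so no single pair can pass 0.05. The median change of the difference was 0.45 in H3.3-KD embryos and 0.02 in MFN1-KD, and for the other pseudogenes 0.66 and −0.20.

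The 12 pseudogenes with all windows in the parent moved together on this measure in H3.3-KD. In MFN1-KD 2 of them had a higher difference and 0 pairs were without overlap, with a median change of −0.40. For these 12 the measure rests on how reads that match both copy and parent were shared out, which is not known. In H3.3-KD all 12 had a higher difference and 11 did not overlap, with a median change of 1.09, where 59.4% of all 128 pairs did not overlap. The difference also rises where the parent falls. The 12 themselves had a median log2 change of 0.57, and 2 of them were called higher. Rpl38-ps2 had a lower mean in H3.3-KD than in control, while Rpl38 went from 5497 to 1814 FPKM. Rpl10a-ps1 rose, while the change of Rpl10a did not pass. The median difference over the 12 was −3.76, −3.01 and −3.21 in the control libraries, −4.08, −3.08 and −3.90 in MFN1-KD, and −2.23, −2.30 and −2.22 in H3.3-KD. The 3 H3.3-KD libraries lay above the other 6 and close to each other. Their median SD between libraries was 0.107 in H3.3-KD, 0.354 in control and 0.780 in MFN1-KD. For the 33 with no shared window the median change in H3.3-KD was 0.36, with 13 higher and 3 lower without overlap, and their median SD was 0.254, 0.250 and 0.355 in the same order. The 79 others had a median change of 0.35. The difference between these classes was not tested.

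**Figure D5:**
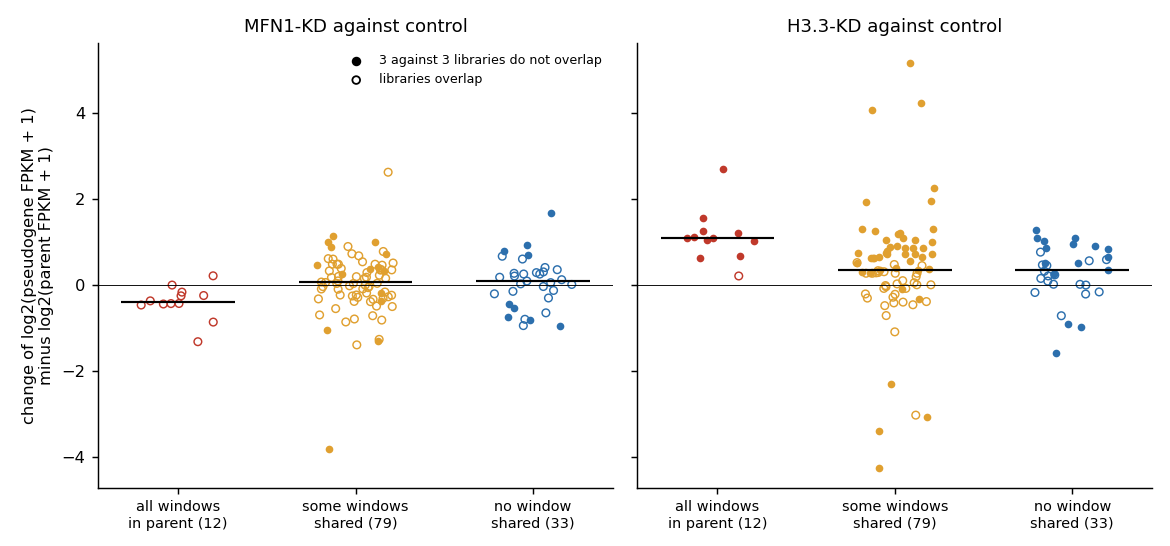
Change of the difference log2(pseudogene FPKM + 1) minus log2(parent FPKM + 1) in MFN1-KD (left) and H3.3-KD (right) against control, for pseudogenes with all, some or no windows of 150 bases shared, filled where the 3 against 3 libraries do not overlap, with the median as a line. In H3.3-KD the medians are 1.09, 0.35 and 0.36, and all 12 points of the first class are above 0.

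Among pairs whose libraries did not overlap and whose pseudogene had a mean of at least 5, to which all of these rankings are limited, the largest gains on the parent in H3.3-KD were those of Rps26-ps1, by 5.16, Rpl15-ps2, by 4.23, and Rpl10a-ps1, by 2.68, beside Rpl30-ps9, which was at 0 in control. The largest losses were −4.23 for Rpsa-ps10, −3.38 for Rps2-ps10, −3.06 for Rps2-ps13 and −0.98 for Rps19-ps7. In MFN1-KD the largest gains were 1.67 for Rpl23a-ps4, 1.00 for Rps19-ps1 and its equal Rps19-ps2, and 0.90 for Rpl10-ps5, a copy of Rpl10, whose protein joins the large subunit late. The largest losses were −3.79 for Rpsa-ps10, −1.29 for Rps2-ps13, −1.04 for Rpl3-ps1 and −0.73 for Rps19-ps7. Each had an exact permutation p of 0.1. Rps19-ps7, with no shared window, had 59.9, 58.8 and 72.8 FPKM in control, 46.7, 42.4 and 10.2 in MFN1-KD, and 27.6, 25.7 and 47.3 in H3.3-KD. All 6 knockdown libraries were below the controls, while Rps19 was at 6360 ± 701, 4758 ± 1191 and 6423 ± 201. Its log2 changes of −1.18 and −0.96 did not pass (limma adjusted p = 0.188 and 0.173).

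Some H3.3-KD libraries stood apart for single pseudogenes. Rps19-ps6, in an intron of Tecpr2, had 413, 512 and 580 FPKM in control, 461, 851 and 565 in MFN1-KD, and 143, 139 and 674 in H3.3-KD, where replicate 3 lay above all controls and the others below. Rps19-ps1 and Rps19-ps2 had 6.55, 7.23 and 34.7 in the same H3.3-KD libraries and 12.7, 10.6 and 14.6 in control. Rpl17-ps5, named after its values were seen, had 151, 524 and 143 in control and 11.9, 200 and 6.94 in H3.3-KD, and its log2 change of −3.04 did not pass (limma adjusted p = 0.0547). Rps6-ps4, identical to Rps6, whose protein is phosphorylated by S6 kinase, had 218, 381 and 378 in control and 601, 557 and 451 in H3.3-KD, without overlap, and its log2 change of 0.75 did not pass either (limma adjusted p = 0.125). The median SD of log2(FPKM + 1) between libraries was 0.298 in control, 0.525 in MFN1-KD libraries and 0.259 in H3.3-KD for the 128. It was 0.293, 0.520 and 0.349 for all genes tested, so the wider MFN1-KD spread was not particular to the pseudogenes. For the ribosomal protein genes it was 0.191, 0.201 and 0.198.

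Between the knockdowns, 16 pseudogenes were higher in H3.3-KD than in MFN1-KD and 6 lower, where 25.8% of all genes tested were higher and 9.44% lower. Rps26-ps1 (log2 change 3.86) and Rpl10a-ps1 (3.13) were among the 16. Rpl3-ps1 was too, with a log2 change of 2.09 (SE 0.36, limma adjusted p = 0.00146) beside 0.75 for Rpl3, which turned to −0.25 with the trend on GC content and length removed. Rpl23a-ps4 and Rpl38-ps1 were among the 6, with log2 changes of −2.01 and −1.46. Under upper-quartile scaling the counts were 6 and 20, and under median-ratio scaling 10 and 14. Without MFN1-KD replicate 2 the count higher was 26, and without H3.3-KD replicate 2 it was 9. The count lower was 13 without H3.3-KD replicate 3 and 10 without MFN1-KD replicate 1.

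At the edge of the choice, Rpl15-ps5 with a mean of 1.13 FPKM and Rpl10-ps2 with 1.05 were just inside the minimum, and Rpl7a-ps10 with 0.943 and Rps19-ps5 with 0.916 just outside. Rpl15-ps5 had 0.53 to 1.60 FPKM over the 9 libraries and Rpl10-ps2 0.11 to 2.18. Neither changed in either knockdown by the test.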

How the data were processed

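RNA libraries of 9 pools of mouse 8-cell embryos were compared, 3 per group, grouped by their titles. The authors trimmed reads with cutadapt 1.16, aligned them with STAR to mm10 and deposited FPKM values per gene, rounded to 2 decimals. The program that made the FPKM values, its annotation, its strand setting and its treatment of reads with several matches are not given in the sources used here. Without strand, reads of a pseudogene and of a gene opposite to it cannot be told apart. No step of whole reads was found in the values, so counts could not be recovered, depth is unknown, and count-based tests were not run.

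The 13011 genes whose mean reached 1 FPKM were fitted on log2(FPKM + 1) over all 9 libraries with limma 3.58.1 (trend and robust moderation) in R 4.3.3, with Benjamini-Hochberg adjustment over all of them. Fold changes on this scale understate those of low genes. The fit was tested on simulated data. Pseudogenes were aligned to their parents by BLASTN 2.17.0 on GENCODE M21 transcripts, the parent being the gene named before -ps. For Rpl18-ps1 the best match was another gene. Exact permutation tests were two-sided. Figures and tables used Python 3.11.15, pandas 2.3.3 and matplotlib 3.10.9.

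Named pseudogenes were the 8 with the highest mean, up to 5 called in each direction per knockdown, per knockdown the 4 largest gains and losses on the parent among pairs without overlap and with a mean of at least 5, and those nearest the minimum. Others are said to be named after their values were seen. The pseudogenes, lists and tests were chosen with earlier results of these data known. Alternatives were 2 other scalings, other filters (none, or a mean of at least 10), a pseudocount of 0.1, fits to the 6 libraries compared, a replicate block, removal of the trend on GC content and length (98.2% of genes had both), the study's threshold and leaving out each library.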

Additional observations from a re-analysis of the deposited data

How the results depend on the processing

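The numbers of pseudogenes called depended on the scaling and on single libraries. A mean of at least 10 left only 62 of the 128 to be tested, and removal of the trend on GC content and length left 124. The count higher in H3.3-KD, 10 as reported, was 6 with either median-ratio or upper-quartile scaling. It was 5 with no filter and 5 of the 62 with a mean of at least 10. With the trend on GC content and length removed it was 15, by the study's threshold 12, and with only the 6 libraries compared 11. The count lower, 3 as reported, was 8 and 16 with those scalings, 5 with a replicate block and 5 by the study's threshold. In MFN1-KD the count lower, 1 as reported, was 2 with either scaling or a mean of at least 10. It was 0 with no filter, with only the 6 libraries compared, with the replicate block or with the trend on GC content and length removed, and 7 by the study's threshold, which gave 2 higher where limma otherwise called 0. Between the knockdowns, the 16 higher became 10, 6 and 9 with median-ratio scaling, upper-quartile scaling and no filter. The 6 lower became 14, 20 and 2 with these and 3 with a mean of at least 10 or with only the 6 libraries compared.

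Leaving out each library gave 4 to 12 higher and 2 to 4 lower in H3.3-KD, 0 to 1 higher and 0 to 1 lower in MFN1-KD, and 9 to 26 higher and 4 to 13 lower between the knockdowns. The 26 came without MFN1-KD replicate 2, the 9 without H3.3-KD replicate 2 and the 13 without H3.3-KD replicate 3, and dropping MFN1-KD replicate 1 gave 10 lower. The pairs without overlap, 76 in H3.3-KD embryos and 26 in MFN1-KD, numbered 78 to 88 and 30 to 55 with a library left out, since fewer libraries overlap less often, and the 2 other settings left both within 1.5 times. Without Rpl34-ps1 the share of the pseudogenes in the summed level was 5.32% in control, 4.72% in MFN1-KD libraries and 7.87% in H3.3-KD libraries. With the trend on GC content and length removed, the log2 changes between the knockdowns of Rpl10a (−0.69), Rpl3 (−0.25) and Rpl34 (−0.80) turned negative. The same removal moved the pseudogenes' median log2 change from control, over the 124 left. For MFN1-KD embryos this median went from −0.12 to 0.26, and for H3.3-KD embryos from 0.0019 to 0.26. The medians of all genes tested were then 0.02 and −0.02, so the pseudogene median lay above that of all genes for either knockdown. The cause of these moves was not tested.

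The calls of Rps26-ps1, Rpl10a-ps1, Rps2-ps6 and Rpsa-ps10 in H3.3-KD against control kept an adjusted p under 0.05 in limma under every alternative that tested them. No label says whether replicate numbers pair the libraries. Deviations of same-numbered libraries from their group means correlated at −0.05 to 0.16, and those of libraries with other numbers at −0.12 to 0.07. Not every library correlated best with its own number. With 3 libraries a group this check is weak and cannot exclude a pairing. A count-based test was not run, because the files hold no counts. Depth is unknown, so no counting error could be given, and values of identical copies cannot be assigned to one of them.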
